A study of Homo sapiens with 6 samples.

Results

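Chromosome 19 is rich in zinc finger genes, and the members examined here were the protein-coding genes of that chromosome whose symbol is ZNF followed by digits alone. The RefSeq gene table of GRCh38.p14 held 240 such genes among 19974 protein-coding genes of chromosomes 1 to 22 and X. They were compared with 1211 other protein-coding genes of chromosome 19 and with 237 genes of the same naming on other chromosomes. The rule used name, gene type and chromosome, not expression or any mark, though it was chosen with earlier results of these data known.

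The cells were endothelial cells derived in culture from H1, an established human embryonic stem cell line, and each label calls them GATA2 positive. GATA2 is a transcription factor of endothelial and blood progenitor cells. They were derived without Vc or with Vc (vitamin C in the title of the series), and H3K4me3 and H3K27me3 were each profiled by chromatin immunoprecipitation and sequencing in 1 library per condition. All groups thus share the H1 line and its genotype, and nothing in the labels gives a number of cultures. With 1 library for each mark and condition, the spread between cultures was not measured and no test between conditions was possible.

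Several statements of the submitters differ from each other. Each of the 4 file names has the condition reversed from its label, so that each direction holds for the library labelled Vc- or Vc+. The design text names cells with and without a GATA2 reporter signal, whereas every label says positive, and the extraction protocol names only antibodies to H3K27me3. Among marker genes of the labelled cell type, H3K4me3 lay at an end of 9 of 9 endothelial genes (CDH5, PECAM1, KDR, TEK, TIE1, ENG, EMCN, ESAM, GATA2) in both libraries. It lay at an end of 0 of 5 blood genes, at 1 of the 4 pluripotency genes found in the table (LIN28A, not POU5F1 or NANOG) and at 3 of 5 mural or mesenchymal genes (ACTA2, TAGLN, COL1A1), again in both. Over all genes the share was 70.3% in the library labelled Vc- and 70.8% in that labelled Vc+. H3K27me3 lay at an end of GATA2 and ESAM in both libraries, and of CDH5 only in that labelled Vc+. Over all genes, it lay at an end of 15.3% and 16.7%.

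Most chromosome 19 ZNF genes encode proteins with a KRAB domain and a row of C2H2 zinc fingers that bind DNA, often in transposable elements. KRAB recruits TRIM28 and through it the methyltransferase SETDB1, which deposits H3K9me3, and the ends of ZNF genes that encode the fingers are themselves known targets of this H3K9me3. H3K27me3 is a separate repressive mark made by the Polycomb complex PRC2, usually found at CG-rich promoters, and H3K4me3 marks active or poised promoters. The fingers are usually encoded in the last exon. Exon positions were not used here, so that places within a gene are given from its start to its far end (the 3′ end of the gene span).

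The values are islands, stretches of enrichment that the authors called and deposited with a score, which ranks islands within 1 list. The H3K27me3 lists held 8990 islands (40.6 Mb) in the library labelled Vc- and 9639 (51.7 Mb) in the library labelled Vc+, and the H3K4me3 lists 22307 (43.3 Mb) and 21991 (48.2 Mb). The longer covered length of the Vc+ lists bears on every count that follows. Read depth per library is not given in the sources used here. An island was taken to lie at an end when it came within 1 kb of it, and inside when it reached into the span at more than 1 kb from either end. Strand was known for 210 of the 240 members and for 15813 of all genes, and gene start and far end were told apart for those.

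Promoter sequences show first how the members differ among themselves. The 300 bases taken lay around the RefSeq transcript start nearest the gene start (GRCh38.p14, 250 before and 50 after). At some members this start lay well inside the span, at ZNF420 70320 bp from the gene start. In these bases the 210 members held a median of 20 CG dinucleotides and 60.2% G and C, against 22 and 62.7% over all genes. ZNF536, ZNF555 and ZNF574 are printed because an H3K27me3 island covered their promoter sequence, with each CG in capitals. The stretches are the 250 bases before the gene start on the plus strand, at chr19:30225342-30225591, chr19:2841225-2841474 and chr19:42068227-42068476.

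ZNF536: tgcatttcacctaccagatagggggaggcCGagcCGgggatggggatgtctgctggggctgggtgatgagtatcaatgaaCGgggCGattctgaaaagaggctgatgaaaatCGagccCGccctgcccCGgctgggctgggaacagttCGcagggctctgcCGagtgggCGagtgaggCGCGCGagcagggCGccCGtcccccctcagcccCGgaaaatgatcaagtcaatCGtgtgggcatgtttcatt

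ZNF555: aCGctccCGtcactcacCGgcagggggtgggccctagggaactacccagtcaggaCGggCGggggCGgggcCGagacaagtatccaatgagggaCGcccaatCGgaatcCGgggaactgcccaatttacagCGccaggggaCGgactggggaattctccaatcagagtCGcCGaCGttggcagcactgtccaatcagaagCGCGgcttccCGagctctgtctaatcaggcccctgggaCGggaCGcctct

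ZNF574: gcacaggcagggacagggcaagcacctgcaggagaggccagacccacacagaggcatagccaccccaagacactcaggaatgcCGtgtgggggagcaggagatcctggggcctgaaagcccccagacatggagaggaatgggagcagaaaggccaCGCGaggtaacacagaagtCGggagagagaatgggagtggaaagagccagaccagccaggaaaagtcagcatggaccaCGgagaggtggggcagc

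These stretches hold 17, 20 and 5 CGs. A second feature was common among the members: the letters CCGGAAG on either strand (CTTCCGG on the other), the core that ETS family transcription factors are known to bind. They occurred in 92 of 210 members (43.8%), in 14.1% of all genes, in 13.4% of the other genes of chromosome 19 and in 35.9% of ZNF genes of other chromosomes. The letters CCATNTT of YY1, searched on both strands, occurred in 17.6% of members and 14.8% of all genes. Both motifs were chosen with results of these data known, and a match describes letters, not binding. ZNF274, ZNF256 and ZNF557 are shown with this core in capitals: ZNF274 encodes a factor known to bring SETDB1 to the finger-coding ends of ZNF genes, ZNF256 holds a copy on each strand that overlap in 1 palindrome, and ZNF557 holds 2 separate copies. They lie at chr19:58182811-58183060 (plus strand), chr19:57947707-57947956 (minus strand) and chr19:7069453-7069702 (plus strand).

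ZNF274: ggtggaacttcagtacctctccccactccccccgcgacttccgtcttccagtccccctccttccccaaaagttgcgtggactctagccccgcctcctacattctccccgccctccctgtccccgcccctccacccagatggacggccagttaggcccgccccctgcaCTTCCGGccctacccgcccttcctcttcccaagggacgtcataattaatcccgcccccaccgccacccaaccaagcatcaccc

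ZNF256: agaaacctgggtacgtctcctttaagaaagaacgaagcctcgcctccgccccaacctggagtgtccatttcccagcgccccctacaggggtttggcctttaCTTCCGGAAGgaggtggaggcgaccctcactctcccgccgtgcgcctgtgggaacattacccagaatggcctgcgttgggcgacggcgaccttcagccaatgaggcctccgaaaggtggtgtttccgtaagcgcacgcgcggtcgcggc

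ZNF557: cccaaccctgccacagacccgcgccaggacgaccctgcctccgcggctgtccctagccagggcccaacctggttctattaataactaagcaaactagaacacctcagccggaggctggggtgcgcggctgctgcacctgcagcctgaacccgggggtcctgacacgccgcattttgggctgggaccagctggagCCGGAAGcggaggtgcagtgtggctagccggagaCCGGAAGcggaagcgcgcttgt

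H3K4me3 was found at most members. An island lay at an end of 207 members (86.2%) in the library labelled Vc- and of 205 (85.4%) in that labelled Vc+, against 70.3% and 70.8% of all genes. It was the gene start that carried it: 182 (86.7%) and 181 (86.2%) of the 210 members with strand had H3K4me3 at the start, against 70.7% and 71.1%, while 21 (10%) and 17 (8.1%) had it at the far end, against 9.41% and 10.1%. ZNF genes of other chromosomes had it at the start in 88.7% in each library. Inside the span it was found in 189 (78.8%) and 191 (79.6%) members, against 58.1% and 61% of all genes. ZNF274 (chr19:58183061-58213562, plus strand) had a start island of 4 kb (score 119) in the library labelled Vc- and of 3.6 kb (score 118) in that labelled Vc+, and no H3K27me3 island in either.

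Few H3K4me3 calls at an end differed between the conditions, while calls inside differed more often. At an end or inside, 223 members (92.9%) were called in both libraries (76% of all genes in each, 74.9% in both), and 0 in either alone (1.03% and 1.06%). At an end, 205 members were called in both libraries (69.4% of all genes were), 2 in Vc- alone (0.901%) and 0 in Vc+ alone (1.33%). At the start these numbers were 181 members (69.9% of all genes with strand), 1 (0.809%) and 0 (1.16%). At the far end they were 12, 9 and 5 of 210 members, and 1349, 139 and 243 of the 15813 genes with strand. Inside they were 173 members (54.9% of all genes), 16 (3.16%) and 18 (6.07%). Islands at 12 of the 16 and at 15 of the 18 overlapped an island of the other list. The 2 at an end were ZNF574 (island of 1.2 kb, score 12.6) and ZNF30 (1.8 kb, score 9.68). ZNF574 had a larger H3K4me3 island deeper in its span in both libraries (2.4 kb, score 112, and 2.6 kb, score 151), centred 60.6% and 58.3% of the way along it.

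H3K27me3 was found at fewer member ends. It lay at an end of 22 members (9.17%, exact Clopper-Pearson 95% interval 5.83 to 13.5%) in the library labelled Vc- and of 32 (13.3%, 9.3 to 18.3%) in that labelled Vc+, against 15.3% and 16.7% of all genes and 9.7% and 10.1% of ZNF genes of other chromosomes. These intervals cover counting error only. With member ends moved by 100 kb, 18 and 24 members were called, so calls at true ends were not far above those at nearby positions. Only this shift was made, and its spread was not measured. The gene start was called in 7 of 210 members (3.33%) and 11 (5.24%), against 12.9% and 14.1% of all genes, 10.4% and 11% of the other chromosome 19 genes and 4.62% and 4.1% of ZNF genes of other chromosomes. The far end was called in 12 (5.71%) and 19 (9.05%), against 3.88% and 4.55% of all genes, 5.64% and 6.46% of the other chromosome 19 genes and 6.15% in each library of ZNF genes elsewhere. The Vc- share at the far end was thus close to that of both nearer groups. Members had more far-end than start calls, as ZNF genes elsewhere did (12 against 9 and 12 against 8), where all genes together had the reverse order. This order rests on low-scoring islands: at a score of 10 or more, members had 5 start and 5 far-end calls in Vc- and 8 and 6 in Vc+. None of the 210 had it at both ends in 1 library.

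Most H3K27me3 of the members lay inside the genes. It was called inside in 51 members (21.2%) and 58 (24.2%), against 15.9% and 18% of all genes, 13.6% and 15.9% of the other genes of chromosome 19 and 14.3% and 17.3% of ZNF genes elsewhere. In each library, 34 of these had it inside alone. Gene length moves with such a count, since a longer span holds more islands: for spans of 20 to 40 kb, 23.8% and 25.7% of members were called inside against 12.7% and 15.4% of all genes of that length, and for spans of 40 kb or more 26.8% and 29.3% against 22.5% and 25.2%. At an end or inside, 56 members (23.3%) and 66 (27.5%) carried H3K27me3, against 18.9% and 20.8% of all genes, 17.6% and 19.8% of the other chromosome 19 genes and 16.9% and 18.1% of ZNF genes elsewhere. Islands covered 2.1% and 3.19% of the members' spans, below the 2.83% and 3.59% of the other chromosome 19 genes and above the 1.09% and 1.38% of all genes.

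H3K27me3 inside the members lay mainly toward the far end. In members with strand, 48 gene-island pairs in the library labelled Vc- (44 genes) and 59 in that labelled Vc+ (53 genes) had the centre of an H3K27me3 island inside the span. With the span cut into 5 equal parts from start to far end, they fell as 4, 3, 6, 18 and 17 in the first library and as 5, 8, 7, 15 and 24 in the second. The last 2 parts thus held 35 (72.9%, exact interval 58.2 to 84.7%) and 39 (66.1%, 52.6 to 77.9%), and the first part 8.33% and 8.47%. Over all genes the first part held 52.8% and 50.4% and the last 2 parts 21.6% and 24%. Other chromosome 19 genes had 28.4% and 31.4% in the last 2 parts, and ZNF genes of other chromosomes 54.1% and 46.3%. Neighbouring members can share an island: the 48 pairs rest on 47 islands and the 59 on 58.

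**Figure D1:**
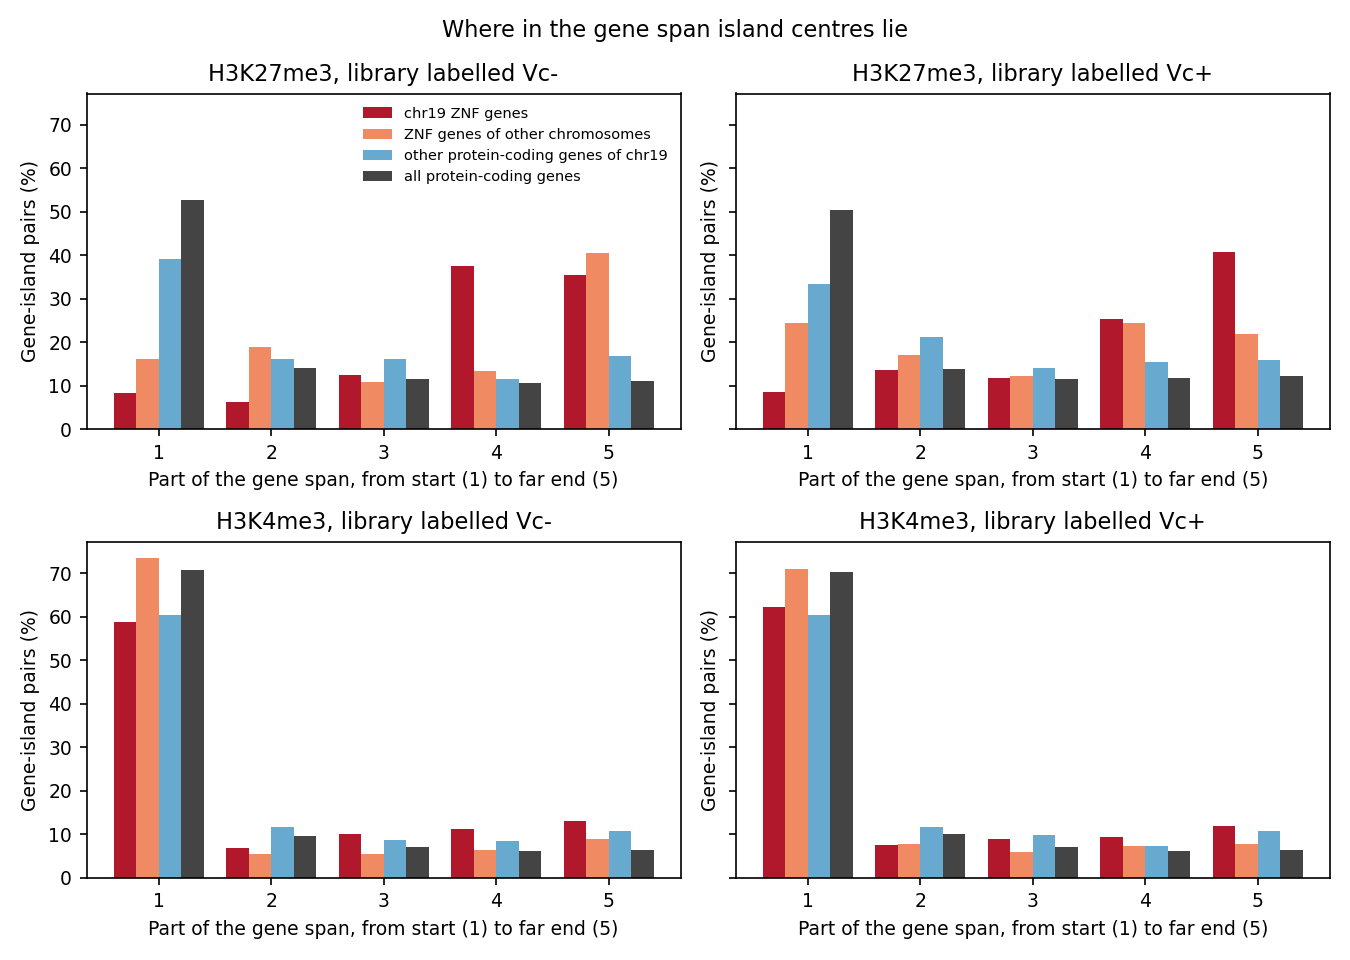
Percent of gene-island pairs whose island centre lies in each of 5 equal parts of the gene span, from start (1) to far end (5), for H3K27me3 (top) and H3K4me3 (bottom) in the libraries labelled Vc- (left) and Vc+ (right); bar colours stand for 4 gene groups. H3K27me3 in chromosome 19 ZNF genes (red) is high in parts 4 and 5, where all genes (black) are high in part 1, while H3K4me3 is high in part 1 in every group.

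In distance, the island centres lay a median of 4.74 kb and 5.07 kb from the far end. Within 10 kb of it lay 32 of 48 (66.7%) and 39 of 59 (66.1%). For all genes the medians were 44.1 and 40.7 kb, and the shares within 10 kb 25% and 23.7%. Other chromosome 19 genes had 10.6 and 10.9 kb, with 49.3% and 49.4% within 10 kb. ZNF genes of other chromosomes had 11.1 and 12 kb, with 48.6% and 43.9%. Distance in kb also depends on gene length. Over spans of 10 kb or more the last 2 parts held 72.7% and 66.7%, against 21.4% and 23.9% for all genes of that length.

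**Figure D2:**
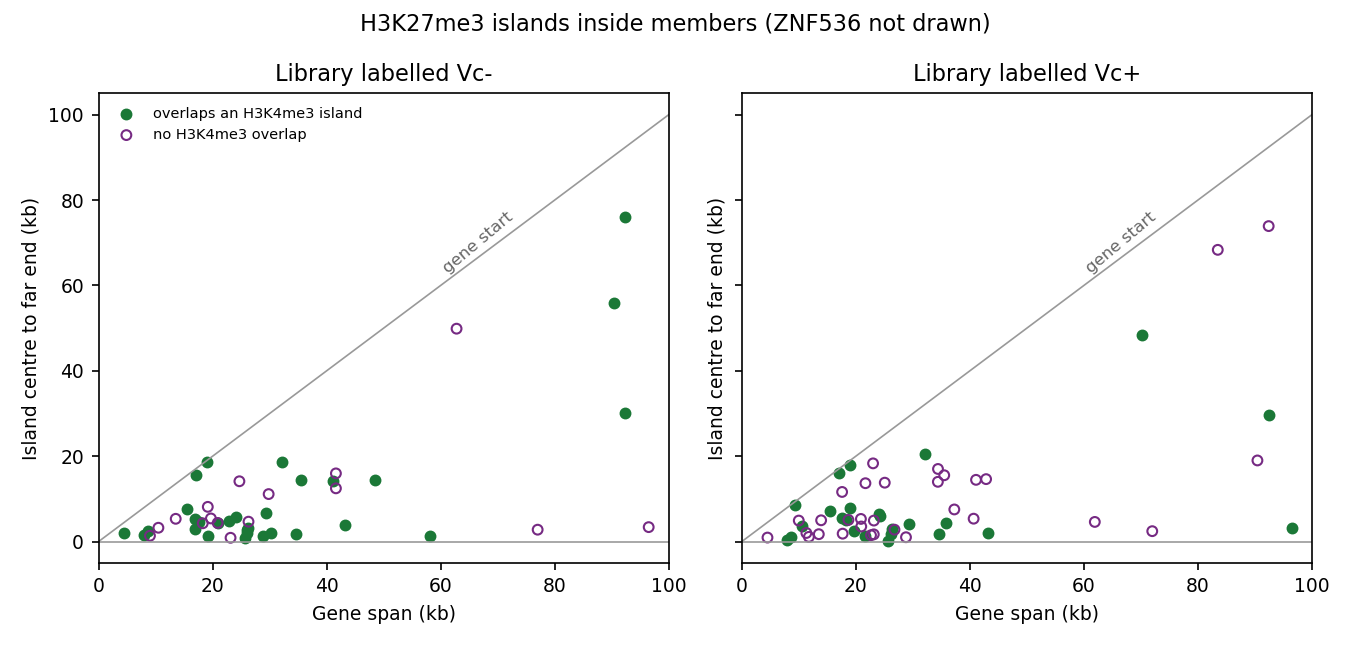
Distance in kb from the centre of each H3K27me3 island inside a member to its far end (y axis) against the gene span in kb (x axis), in the libraries labelled Vc- (left) and Vc+ (right). ZNF536, which has a start island in each library, is not drawn. Filled points overlap an H3K4me3 island of the same condition, open points do not. Points crowd near 0 on the y axis across spans up to about 40 kb, and few lie near the diagonal that marks the gene start.

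The far-end islands were small and of low score. Those in the last 2 parts had a median score of 7.04 and 7.58 and a width of 2.4 and 3 kb, where the last 2 parts of all genes had a median score of 15.8 and 13.5 and those of ZNF genes elsewhere 6.26 and 8.07, with widths of 2.4 and 3.2 kb. The highest scores were at ZNF850, at 16.2 in Vc- and 23.9 in Vc+. An island of the other condition's list met 18 of 35 (51.4%) and 19 of 39 (48.7%), against 76.3% and 59.4% for all genes. With only islands of score 10 or more, 7 of 12 (58.3%) and 9 of 17 (52.9%) lay in the last 2 parts.

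H3K4me3 was also found in these far parts. Of the H3K27me3 islands in the last 2 parts of members, 22 of 35 (62.9%) and 18 of 39 (46.2%) overlapped an H3K4me3 island of the same condition, against 55.8% and 54.4% for all genes. Members had 63 and 57 H3K4me3 pairs in the last 2 parts (24.2% and 21.3% of their pairs, against 12.5% and 12.6% for all genes). These had a median score of 8.74 and 7.17, against 127 and 115 in the first part of the members and 32.7 and 27.6 in the last 2 parts of all genes. Of the members' H3K4me3 pairs in the last 2 parts, 34.9% and 35.1% overlapped H3K27me3, against 4.58% and 4.19% of those in the first part. Over all genes these shares were 22.1% and 25.7% in the last 2 parts and 16.1% and 17.7% in the first, and ZNF genes elsewhere had 38.7% and 29% in the last 2 parts. Low-scoring islands of both marks thus lay in the same far parts. The input samples were not used here, and the part of signal common to both antibodies was not tested.

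Examples give the sizes. ZNF850 (chr19:36743480-36772807, minus strand) had an H3K27me3 island of 4.4 kb centred 77.1% along its span in the library labelled Vc- (score 16.2) and of 7.6 kb centred at 85.9% in that labelled Vc+ (score 23.9). Its H3K4me3 islands were a start island of 3.2 kb in each library, with scores of 248 and 268, and a far island of 4 kb (score 36) or 3.2 kb (score 24.1) under the H3K27me3. ZNF121 (chr19:9560329-9584504, minus strand) carried 4.6 kb (score 9.33) and 5.8 kb (score 12.2) of H3K27me3, centred at 76.1% and 75.3%. ZNF724 (chr19:23221599-23250394, minus strand) carried 2.4 kb in each library (scores 10 and 13.2), centred at 95.8% and 96.5%. ZNF557, whose promoter is printed above, carried 3 kb (score 15.2) and 4.2 kb (score 9.31), centred at 76.6% and 72.3%. In each of these 4 the islands of both libraries overlap.

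H3K27me3 at the gene start was the exception, and its members are few. ZNF555, ZNF441, ZNF536 and ZNF671 had it in both libraries. ZNF439, ZNF574 and ZNF175 had it in Vc- alone. ZNF543, ZNF222, ZNF878, ZNF132, ZNF565, ZNF283 and ZNF550 had it in Vc+ alone. Start calls in both libraries took 11.6% of all genes, and calls in 1 alone 1.28% and 2.53%. The islands at ZNF175, ZNF671, ZNF283, ZNF222, ZNF543 and ZNF132 lay wholly upstream of the span. Over the 300-base promoter sequence itself, 7 members had H3K27me3 in either library (ZNF555, ZNF441, ZNF439, ZNF878, ZNF536, ZNF565 and ZNF574). None of the 7 held the ETS core, and their median CG count was 14. Among members with the core, 0 of 92 had H3K27me3 over the promoter in either library and 84 (91.3%) had H3K4me3 in each; among the 118 without it, 4 and 5 had H3K27me3 and 106 and 109 had H3K4me3. Over all genes, H3K27me3 covered the promoter in 2.95% and 3.72% of those with the core and in 11.6% and 13.6% of those without. H3K4me3 covered it in 93.6% and 94% of all genes with the core, close to the members' share. Without the core it covered 65.5% and 66.2% of all genes, against 89.8% and 92.4% of members.

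ZNF536 differed from the other members in size and marking. It encodes a zinc finger protein known from neurons, lies alone between clusters (chr19:30225592-30713586, plus strand), and had the widest H3K27me3 of the members called in both libraries, 14.6 kb and 20 kb over its span and 1 kb on either side. Its start island was 10.4 kb wide and scored 98.2 (chr19:30221601-30232000) in the library labelled Vc- and 11.4 kb, scoring 119 (chr19:30221401-30232800) in that labelled Vc+. A further island inside had scores of 74.5 and 53.3, and the library labelled Vc+ listed 1 more of 5 kb and score 4.94 beside it. H3K4me3 lay under the start island as 0.8 and 2.2 kb (scores 10 and 56.2) in the library labelled Vc- and as 1 island of 4.2 kb (score 72.9) in that labelled Vc+. ZNF653 had a far-end island of similar score, 88.4 (5.6 kb) and 107 (6.4 kb), which also lay at an end of ELAVL3, a gene of a neuronal RNA-binding protein with no H3K4me3 there.

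Where both marks met at the same end, members were few: 10 (4.17%) and 15 (6.25%), against 12.8% and 14.3% of all genes, 8.42% and 10.4% of the other chromosome 19 genes and 6.33% and 5.91% of ZNF genes elsewhere. Another 12 (5%) and 17 (7.08%) members had H3K27me3 at an end without H3K4me3 at that end, against 3.76% and 3.87% of all genes, 6.61% and 5.7% of the other chromosome 19 genes and 3.38% and 4.64% of ZNF genes elsewhere. ZNF555 was of the first kind at its start: the promoter printed above lay under H3K27me3 of 1.6 kb (score 7.74) and 3 kb (score 13.9), and H3K4me3 overlapped 1.6 and 2 kb of these.

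Between the conditions, H3K27me3 was listed at more members in the library labelled Vc+, which was also the longer list. Counts below are of 240 members, and each percent in parentheses is the share of all genes so called. At an end, 11 members were called in both libraries (13.8% of all genes), 11 in Vc- alone (1.51%) and 21 in Vc+ alone (2.92%). Inside, 29 were called in both (14.4%), 22 in Vc- alone (1.47%) and 29 in Vc+ alone (3.5%). At an end or inside, 33 were called in both (17%), 23 in Vc- alone (1.82%) and 33 in Vc+ alone (3.77%). Calls in 1 library alone thus outnumbered those in both among members, while among all genes 3404 were called in both and 364 and 754 in 1 alone. With the Vc+ list cut from 9639 to its 6681 highest-scoring islands, which brings it to the covered length of the other list, the excess of Vc+ over Vc- end calls was 6 members in place of 10. Calls inside turned in direction under that cut, to 51 in Vc- and 41 in Vc+ in place of 51 and 58. The cut removed low-scoring islands from the Vc+ list alone, so it could lower only Vc+ calls. Islands at members had median scores of 7.63 and 8.54, below the list medians of 10.1 and 10.4. No direction at equal depth can be read from it.

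Calls in 1 list alone had mostly low scores. In the library labelled Vc+, the highest were ZNF543 (54.6), ZNF850 (23.9), ZNF222 (14.3), ZNF878 (12.7), ZNF90 (11.2) and ZNF132 (11.1), followed by ZNF606, ZNF468, ZNF223, ZNF565, ZNF551 and ZNF77 with scores of 8.53 to 9.55. Islands at 7 of the 21, among them ZNF543, ZNF850, ZNF222 and ZNF90, overlapped an island of the Vc- list that stopped short of the 1 kb window. For 14 there was no such island. In the library labelled Vc-, ZNF439 (20.3), ZNF574 (15.1), ZNF613 (12.1), ZNF175 (11.6), ZNF180 (9.62), ZNF20 (6.3), ZNF461 (5.34), ZNF440 (4.15), ZNF571 (3.83), ZNF569 (2.91) and ZNF471 (2.91) made up the 11, and none met an island of the Vc+ list. With 1 library per condition, a change with Vc and a chance difference between libraries cannot be told apart.

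Among the 33 members with H3K27me3 in both libraries, 29 shared bases between the libraries. The covered length was greater in the library labelled Vc+ for 23, greater in that labelled Vc- for 7 and equal for 3, with medians of 3.2 and 2.4 kb. After ZNF536, the widest were ZNF69 (8 and 11 kb in Vc- and Vc+), ZNF850 (4.4 and 7.6 kb), ZNF555 (1.6 and 6.2 kb), ZNF121 (4.6 and 5.8 kb), ZNF260 (2.8 and 5.6 kb) and ZNF649 (1.6 and 5.4 kb). ZNF700, ZNF551, ZNF266, ZNF557, ZNF606, ZNF426, ZNF134, ZNF253, ZNF765 and ZNF737 also covered more in the library labelled Vc+, by the same measure. ZNF221 (4 and 2.8 kb), ZNF283 (3.8 and 0.08 kb) and ZNF91 (3.2 and 2 kb) covered more in that labelled Vc-, with no base shared. The order follows the whole lists, whose median width was 3.2 kb in Vc- and 4 kb in Vc+.

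Members stand in 9 clusters of at least 5 genes with neighbouring starts at most 1 Mb apart, numbered along the chromosome, and 9 members stand outside them. H3K27me3 at an end or inside was most frequent in cluster 3 (ZNF653 to ZNF791, chr19:11483429-12633834), with 10 of 25 members (40%) in the library labelled Vc- and 14 (56%) in that labelled Vc+. Cluster 2 (ZNF557 to ZNF846, chr19:7069703-9786160) had 5 of 15 (33.3%) and 8 (53.3%). The largest cluster, 9 (ZNF628 to ZNF446, chr19:55476617-58489533), had 7 of 57 (12.3%) and 8 (14%). Cluster 7 (ZNF575 to ZNF296) had 3 of 24 (12.5%) and 7 (29.2%), and cluster 8 (ZNF175 to ZNF331) 9 of 39 (23.1%) and 11 (28.2%). Clusters 4 (ZNF101 to ZNF254) and 6 (ZNF565 to ZNF573) went the other way between libraries, with 11 of 37 (29.7%) against 9 (24.3%) and 7 of 24 (29.2%) against 5 (20.8%). Clusters 1 (ZNF554 to ZNF77) and 5 (ZNF302 to ZNF792), of 5 members each, had 1 and 2 and 1 and 1, and the 9 members outside clusters 2 and 1. H3K4me3 at an end or inside was found in every member of clusters 3, 5, 6 and 9, in 73.3% of cluster 2 and in 28 of 37 (75.7%) of cluster 4, in both libraries. H3K27me3 islands covered 3.81% and 8.62% of the spans in cluster 3, 4.23% and 8.17% in cluster 2, and 1.49% and 1.65% in cluster 9. Genes were shorter in cluster 9 (median span 12.8 kb) than in clusters 3 (21.7 kb) and 2 (22.1 kb). They were longer in clusters 4 (34.6 kb) and 6 (35.1 kb), which had lower H3K27me3 shares than clusters 3 and 2. Cluster 4 includes the 9 neighbours without any island that are described below. The part of gene length in these shares was not tested.

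**Figure D3:**
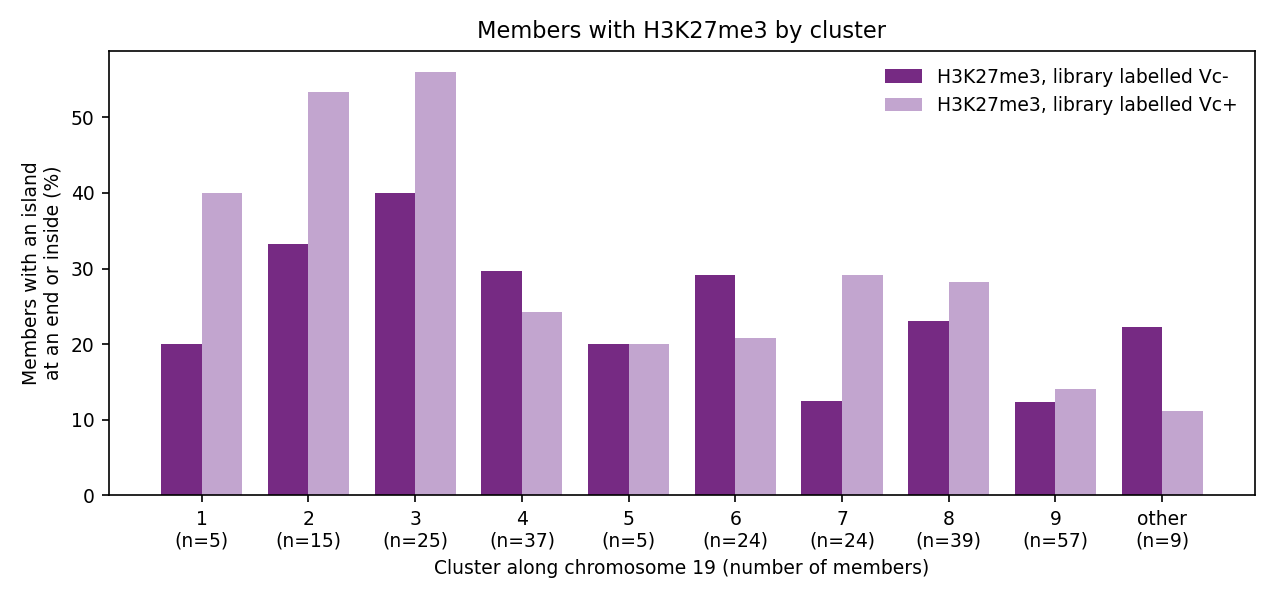
Percent of members with an H3K27me3 island at an end or inside (y axis) in each of 9 clusters in order along chromosome 19 and in the members outside them (x axis, with the number of members), for the libraries labelled Vc- (dark) and Vc+ (light). Cluster 3 reaches 40% and 56%, and cluster 9 stays at 12.3% and 14%.

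Far positions were seen in clusters of both kinds. In cluster 9, 5 of 5 and 4 of 4 H3K27me3 pairs lay in the last 2 parts of the span, in cluster 4 8 of 10 and 6 of 8, in cluster 8 6 of 8 and 7 of 9, and in cluster 3 6 of 8 and 8 of 15. Within the clusters of 15 or more members, cut into 3 runs of members by order, the first run had H3K27me3 at 22 of 75 (29.3%) and 25 (33.3%), the middle run at 9 of 73 (12.3%) and 17 (23.3%), and the last at 21 of 73 (28.8%) and 20 (27.4%). The middle was thus lowest in both libraries, by less in that labelled Vc+.

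**Figure D4:**
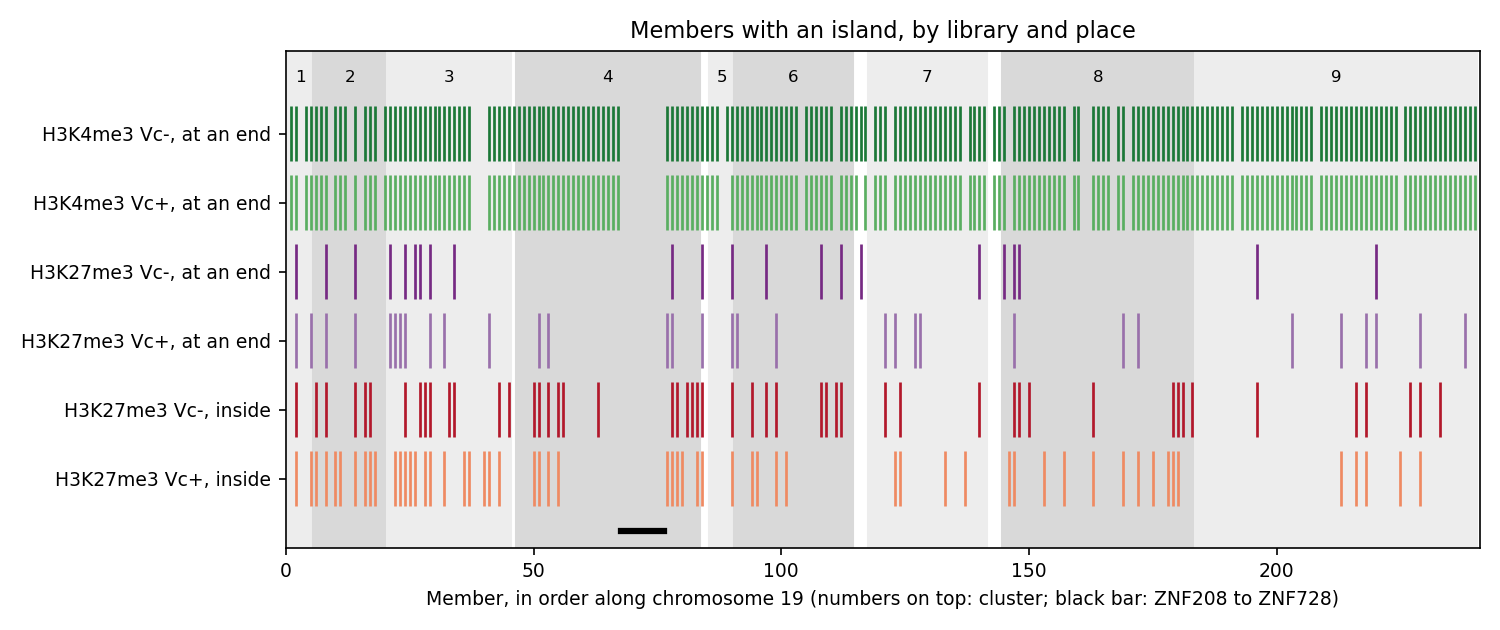
Each of the 240 members in order along chromosome 19 (x axis), with a tick where an H3K4me3 island lies at an end (green rows) or an H3K27me3 island lies at an end (purple rows) or inside (red and orange rows) in the libraries labelled Vc- and Vc+; grey bands are the 9 clusters. Green ticks run through most of the chromosome, and all rows are blank over the 9 members from ZNF208 to ZNF728 in cluster 4 (black bar).

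One stretch of cluster 4 held neither mark. The 9 neighbours ZNF208, ZNF257, ZNF676, ZNF729, ZNF98, ZNF492, ZNF99, ZNF723 and ZNF728 (chr19:21939815-23003176, 1063 kb), between ZNF43 and ZNF730, had 0 islands in all 4 lists. The whole cluster of 4.46 Mb had 17 and 15 H3K27me3 islands and 59 and 56 H3K4me3 islands. In all, 17 members (7.08%) had no island of either mark in any list, against 21.3% of all genes, and the other 8 stood singly (ZNF177, ZNF404, ZNF534, ZNF541, ZNF556, ZNF558, ZNF560 and ZNF562). How the authors placed reads that match several places is not given in the sources used here, so that a gene without islands is one where none was called. A wider group, 33 members (13.8%), had no H3K4me3 at either end in either library, against 28.3% of all genes and 11.4% of ZNF genes elsewhere. Of these, 16 had H3K4me3 inside (among them ZNF563, ZNF442 and ZNF799 in cluster 3, in both libraries) and 17 had none at all. Within the 16 were the 12 with H3K4me3 at a listed RefSeq transcript start and the 5 that carried H3K27me3 in a library.

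Genes of the pathway in which KRAB zinc finger proteins act mostly carried H3K4me3. Of 15 cofactor and H3K9 methylation genes (TRIM28, SETDB1, ATF7IP, CBX1, CBX3, CBX5, TASOR, MPHOSPH8, PPHLN1, MORC2, ATRX, DAXX, DNMT1, UHRF1, SMARCAD1), 14 had H3K4me3 at an end in each library. The share over all genes was 70.3% in the library labelled Vc- and 70.8% in that labelled Vc+. UHRF1, which guides DNA methylation after replication, had it inside instead (3 and 3.2 kb). H3K27me3 lay at an end of 15.3% and 16.7% of all genes. Among the 15, it was called at an end of 0 in the library labelled Vc- and of 1 in that labelled Vc+, TRIM28. That island of 5.8 kb (score 53.3, chr19:58537401-58543200) stopped just before the gene (chr19:58544064-58550715), which had H3K4me3 of 3.4 and 3.8 kb.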

How the data were processed

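Chromatin immunoprecipitation of H3K4me3 and H3K27me3 was analysed in 4 libraries of GATA2-positive endothelial cells from H1, grouped by label; the 2 input samples were not used here. The tools Bowtie2, SICER and deepTools appear, with hg38 and GRCh38 as builds, per the submitters' processing notes; their roles, versions and settings are not given in the sources used here. The authors deposited 1 island list per library, with a score per island whose scale is not stated; it served to order or filter islands of 1 list. From the values, widths are multiples of 200 bp and scores run from 2.00055 to 1000. Coordinates were converted to counting from 1, as the deposited starts begin at 0 with inclusive ends. How reads that match several similar genes were placed is not given.

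Genes came from the RefSeq GRCh38.p14 gene table, and strand and promoter sequences from the RefSeq promoter table, with the row nearest the gene start for each gene. An island was counted with at least 1 bp of overlap, and a position is that of its centre. The submitters' build and the gene table match in name. When gene ends were moved by 100 kb, H3K4me3 calls at member ends went from 207 to 56 and from 205 to 57, and H3K27me3 calls from 22 to 18 and from 32 to 24. Overlap counting was tested on simulated data, where 200 of 200 islands planted at each of start, far end and inside were found, and against bedtools 2.31.1, where 0 of 19974 genes differed. Python 3.11.15, pandas 2.3.3, numpy 2.4.6, scipy 1.17.1 and matplotlib 3.10.9 were used. No test was run, since each group is 1 library; counts stand beside those over all genes.

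Members, lists, motifs and comparisons were chosen with earlier results of these data known. The genes named were up to 20 members with H3K27me3 in both libraries by covered length, up to 12 per direction and mark called at an end in 1 library by score, up to 10 without H3K4me3 at either end by position, ZNF274, and cofactors that differ from the rest of their list; members of small counts and position examples were named after their values were seen. Exons and protein features (length, fingers, KRAB letters), which had been planned, were not used here. Alternatives were the window, score, list length, overlap, member rule, transcript starts, shared islands and cluster gap.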

Additional observations from a re-analysis of the deposited data

How the results depend on the processing

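Of 119 alternative values, 98 stayed within 1.5 times the main value or its counting interval, 20 moved and 1 reversed. The cause was not tested. The 98 include the Vc- values at equal covered length, which that setting could not change. Only a change of sign counted as reversed, so a changed order of the 2 libraries did not. At score 10 or more, the shares in the last 2 parts (58.3% and 52.9%) lay just above the interval limits of 58.2% and 52.6%. With a 500 bp window, H3K27me3 start calls in Vc+ were 6, members with both marks in Vc+ 9, and the H3K4me3 net (end calls in Vc+ alone minus those in Vc- alone, main value -2) turned to 1. With a 2 kb window, H3K27me3 start calls in Vc- were 11, both marks 24 and 25, and the H3K4me3 net -1. With islands of score 10 or more, H3K27me3 calls in Vc- and Vc+ were 10 and 14 at either end, 5 and 8 at the start, 5 and 6 at the far end (so that the far end no longer exceeded the start), and 13 and 15 inside, both marks in Vc+ 9, the H3K27me3 net 4 (main value 10) and the H3K4me3 net -1. At equal covered length H3K27me3 calls inside were 51 and 41, the reverse order of the libraries, the H3K27me3 net was 6 and the H3K4me3 net -4. That setting removed islands from the Vc+ lists alone. With an overlap of at least 200 bp, H3K27me3 start calls in Vc+ were 7 and the H3K27me3 net 5. With ZFP, ZSCAN, ZIM, ZIK and ZKSCAN genes added to the members, the H3K4me3 net was -1. The share of H3K27me3 pairs in the last 2 parts of the span was 52.9% to 72.9% over its alternatives, which were chosen after seeing the data, as were transcript starts and the leaving out of islands shared with another gene. A gap of 500 kb between clusters left cluster 3 at 40% and 56%. No paired analysis was possible because there is 1 library per mark and condition and the labels carry no replicate numbers. Depth is unknown, so a missing island means only that none was called.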
